A study of Mus musculus with 10 samples.

Results

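Secreted WNT antagonists were followed in bulk RNA-seq libraries of the mouse anterior fontanelle (AF), the largest soft gap between the bones of the skull roof. The group comprised *Sfrp1*, *Sfrp2*, *Sfrp4*, *Frzb*, *Wif1*, *Notum*, *Dkk1*, *Dkk2*, *Dkk3* and *Sost*, which were taken by gene symbol and make up 10 of the 23080 genes in the count table. All 10 passed the filter on low counts. The libraries came from embryos at E18.5 (days of gestation), with 5 libraries labelled wild type and 5 labelled *Wnt1-Cre; Fgfr2fl/fl*, in which Cre recombinase is driven by the *Wnt1* promoter in neural crest cells and their descendants. Cells of other origin in the same tissue keep intact *Fgfr2* alleles. The labels call the first group wild type, the study describes control and mutant littermate pairs, and no source used here says which libraries form a pair. The AF was excised with adjoining suture connective tissue and bone, without skin and brain, so each value sums all of these cells, and fewer cells of a type cannot be told apart from less RNA per cell.

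WNT proteins are lipid-modified ligands that bind a Frizzled receptor together with the co-receptor LRP5 or LRP6 and so stabilize β-catenin, which promotes osteoblast differentiation in the skull. The antagonists act outside the cell at different points of this step. SFRP1, SFRP2, SFRP4, FRZB and WIF1 bind WNT ligands, NOTUM removes the lipid that the ligand needs, and DKK1, DKK2 and sclerostin (the product of *Sost*) bind LRP5 and LRP6. DKK3 is a divergent member of the Dickkopf family that does not share the LRP6 binding of DKK1.

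The libraries held 20774667 to 28515434 estimated counts, of which ribosomal RNA genes took 18.7% to 33.6%. The targeted gene was measured first. *Fgfr2* was at 199.5 ± 21.7 CPM (TMM-normalized counts relative to the library total) in the libraries labelled wild type and at 318 ± 32.8 CPM in those labelled mutant (SD, n = 5 each), with an adjusted p of 0.0487 from edgeR's quasi-likelihood test. Total *Fgfr2* counts thus went against the label, while one count per gene pools recombined with intact transcripts. The groups are therefore named control-label and mutant-label libraries throughout, and every direction refers to the label.

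The sequences before 4 of the genes are shown here because they represent the antagonist that was higher in the mutant-label libraries at an unadjusted p under 0.05, the most abundant of those that were lower, and the pair that acts on LRP5 and LRP6 and was also lower. They are from RefSeq on GRCm38.p6, run 5′ to 3′ on the strand of the gene, and end at the start of the gene in the RefSeq or the GENCODE M21 annotation, whichever comes first. The positions are chr3:83766071-83766320 on the plus strand for *Sfrp2*, chr10:121033754-121033959 on the plus strand for *Wif1*, chr11:101967016-101967265 on the minus strand for *Sost* and chr19:30549666-30549746 on the minus strand for *Dkk1*. Capitals mark a match to the RUNX letters TGTGGT, which in *Dkk1* lie on the opposite strand.
Sfrp2: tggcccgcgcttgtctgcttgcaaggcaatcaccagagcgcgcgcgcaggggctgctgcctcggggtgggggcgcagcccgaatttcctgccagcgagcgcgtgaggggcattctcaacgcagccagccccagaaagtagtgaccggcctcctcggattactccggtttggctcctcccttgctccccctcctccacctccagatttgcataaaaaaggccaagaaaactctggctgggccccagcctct
Wif1: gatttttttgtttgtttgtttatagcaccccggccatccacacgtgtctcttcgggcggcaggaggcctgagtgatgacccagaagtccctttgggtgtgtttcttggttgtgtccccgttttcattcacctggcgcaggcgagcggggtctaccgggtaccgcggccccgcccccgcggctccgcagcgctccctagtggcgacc
Sost: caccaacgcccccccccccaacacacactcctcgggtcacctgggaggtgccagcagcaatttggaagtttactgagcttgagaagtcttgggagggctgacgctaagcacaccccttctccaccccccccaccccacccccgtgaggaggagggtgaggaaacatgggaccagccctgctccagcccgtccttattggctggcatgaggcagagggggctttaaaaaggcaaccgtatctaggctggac
Dkk1: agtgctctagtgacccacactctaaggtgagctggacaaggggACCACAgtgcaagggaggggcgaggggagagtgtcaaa

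The RefSeq promoter table held 6 of the 10 antagonists, namely *Sfrp2*, *Frzb*, *Wif1*, *Dkk1*, *Dkk2* and *Sost*. Windows from 250 bases before to 50 bases after the RefSeq start were searched on both strands for TGTGGT, the core letters bound by RUNX factors, and for letters bound by the TCF and LEF factors that work with β-catenin. The latter were CTTTGAA and its forms that end, in place of the last pair of letters, in TT or AT or TA. *Dkk1* was the only one of the 6 with a match. Its window held the forms with AA and TT at the end in the stretch CTTTGAAatcccatcccggCTTTGTT on the minus strand (letters in capitals), at chr19:30549588-30549613, which lies inside the *Dkk1* gene as GENCODE annotates it. Of the 32851 promoters in the table, 16.9% held TCF/LEF letters and 16.8% held the RUNX letters. These matches describe the sequence, and binding was not measured.

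Per kilobase of exon, which allows levels of different genes to be set side by side, *Sfrp2* was the most abundant antagonist in control-label libraries at 193 ± 27.2 CPM per kb (SD, n = 5). *Wif1* followed at 107 ± 9.0 CPM per kb and *Dkk3* at 50.5 ± 7.14 CPM per kb. The LRP5/6 inhibitors *Sost* and *Dkk1* came next, at 35.0 ± 11.5 and 33.2 ± 6.65 CPM per kb, and their libraries overlapped, as did those of *Dkk3* and *Sost*. *Sfrp1*, *Dkk2*, *Frzb*, *Sfrp4* and *Notum* lay between 10.4 and 1.93 CPM per kb, and in this lower part of the order *Dkk2* overlapped *Frzb* and *Frzb* overlapped *Sfrp4*. In the mutant-label libraries *Sfrp2* stood at 282 ± 48.7 and *Wif1* at 83.3 ± 8.24 CPM per kb.

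**Figure D1:**
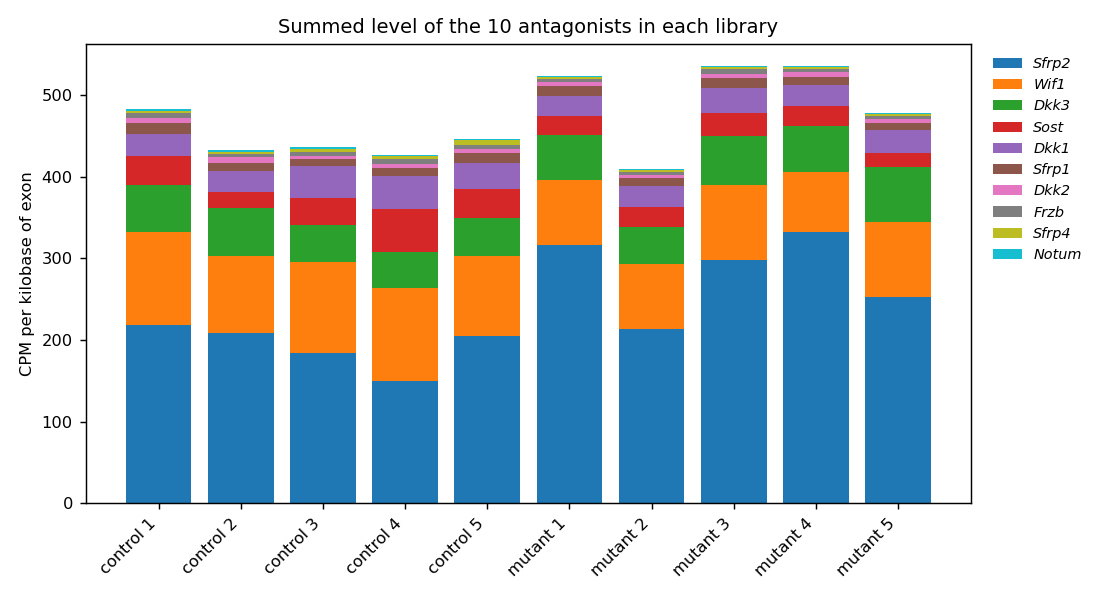
Stacked bars give the level of each antagonist in CPM per kilobase of exon in each of the 10 libraries, 5 control-label and 5 mutant-label. *Sfrp2*, at the base of each bar, took 35.0% to 48.0% of the sum in the control-label libraries and 52.1% to 62.0% in the mutant-label libraries.

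The make-up of the summed antagonist transcripts differed by label. *Sfrp2* took 43.3 ± 5.05% of the sum of the 10 genes (CPM per kb) in control-label libraries and 56.6 ± 4.44% in mutant-label libraries (SD, n = 5 each), without overlap. The sum itself was 445 ± 22.6 and 496 ± 54.0 CPM per kb, and the sum of the 9 genes other than *Sfrp2* was 252.05 ± 20.4 and 214 ± 17.0 CPM per kb. *Wif1* took 24.0 ± 2.10% and 17.0 ± 2.52%. These shares are given as descriptions of the libraries, with no test.

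Between labels, 8 of the 10 antagonists had a lower and 2 a higher fitted value in the mutant-label libraries. Over all 16267 genes tested, 8085 were lower and 8182 higher. Of the 8 lower antagonists, *Dkk2* and *Sfrp1* were near no difference, with log2 fold changes of −0.003 and −0.05. No antagonist passed an adjusted p of 0.05 by edgeR's quasi-likelihood test, a mark that 0.0184% of the genes tested reached. At an unadjusted p under 0.05 there were 6 lower antagonists, against 3.82% of all genes, and 1 higher antagonist, against 3.68% of all genes. The groups did not overlap for 3 antagonists that were lower and for none that was higher, where the backgrounds over all genes were 0.701% and 0.781%. DESeq2's Wald test passed 4 antagonists (*Sfrp4*, *Sfrp2*, *Wif1* and *Notum*, adjusted p from 0.0050 to 0.0392), against 0.615% of the genes to which it gave an adjusted p, while limma voom with quality weights passed none. The median log2 fold change was −0.32 over the antagonists and 0.0007 over all genes tested. The antagonists were chosen with earlier results of these libraries known, so their counts beside those of all genes are not an independent test.

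**Figure D2:**
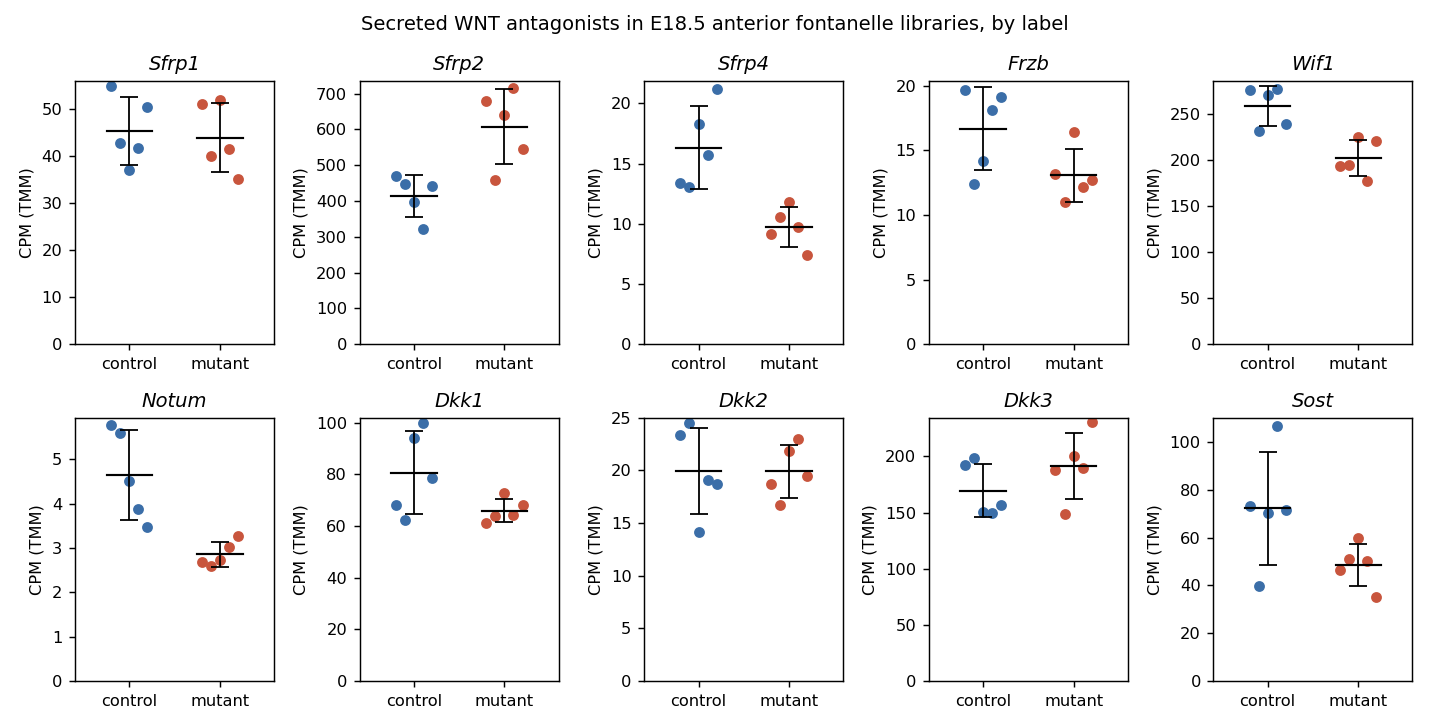
Each panel plots the TMM-normalized CPM of an antagonist in the 5 control-label (blue) and 5 mutant-label (red) libraries, with the mean as a line and the SD as a bar, on an axis that starts at 0. The groups are separate for *Sfrp4*, *Wif1* and *Notum*, and *Sfrp2* is the antagonist with the highest mutant-label mean, at 608 CPM.

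*Sfrp2* encodes a secreted Frizzled-related protein with a cysteine-rich domain like that of the Frizzled receptors. It was at 469.6, 447.5, 396.6, 321.9 and 441.2 CPM in control-label libraries 1 to 5 and at 680.1, 459.2, 640.6, 715.6 and 544.7 CPM in mutant-label libraries 1 to 5. All mutant-label libraries but the second lay above every control-label one. The means were 415 ± 58.6 and 608 ± 105 CPM (SD, n = 5 each), and the log2 fold change was 0.55 (standard error 0.132, unadjusted p = 0.0014, adjusted p = 0.321, edgeR). The two-sided exact permutation test of this gene alone gave p = 0.0159. *Sfrp2* lies at chr3:83766321-83774316 and shares 347 exon bases with *Gm26771* on the opposite strand, and use of strand in counting is not given in the sources used here.

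*Sfrp4*, another Frizzled-related protein, made up the largest log2 difference of the group. It was at 13.4, 13.1, 18.3, 15.7 and 21.2 CPM in control-label libraries and at 9.15, 10.6, 11.8, 9.70 and 7.37 CPM in mutant-label libraries. Every control-label library was above every mutant-label one. The log2 fold change was −0.74 (standard error 0.155, unadjusted p = 0.0005, adjusted p = 0.208, edgeR), with an exact permutation p of 0.0079, the smallest that 5 against 5 libraries can give. *Sfrp4* lies at chr13:19623104-19632994.

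*Sfrp1* and *Frzb*, the other Frizzled-related genes, gave smaller differences. *Sfrp1*, at chr8:23411502-23449632, was at 45.4 ± 7.23 CPM in control-label and 44.0 ± 7.33 CPM in mutant-label libraries (log2 fold change −0.05, standard error 0.129, adjusted p = 0.955, edgeR), and the groups overlapped over most of their range. *Frzb*, at chr2:80411970-80447625, was at 19.7, 12.4, 14.2, 18.1 and 19.1 CPM in control-label libraries and at 13.1, 10.97, 16.4, 12.1 and 12.7 CPM in mutant-label libraries. Its groups overlapped, and the log2 fold change was −0.35 (standard error 0.144, unadjusted p = 0.0308, adjusted p = 0.634, edgeR, exact permutation p = 0.0714). Among the ligand-binding SFRPs 1 gene was higher, 2 were lower and 1 was near no difference at the unadjusted threshold. Over all genes tested, 3.68% were higher and 3.82% lower at that threshold. The call of *Frzb* held in 3 of the 10 fits that each left out 1 library.

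*Wif1* encodes WNT inhibitory factor 1, which binds WNT ligands through a domain unrelated to that of the SFRPs. It was at 276, 231, 270, 277 and 239 CPM in control-label libraries and at 193, 195, 225, 177 and 221 CPM in mutant-label libraries. The lowest control-label library, at 231 CPM, was just above the highest mutant-label one, at 225 CPM. The log2 fold change was −0.36 with the smallest standard error of the group, 0.081 (unadjusted p = 0.0010, adjusted p = 0.302, edgeR, exact permutation p = 0.0079). *Wif1* lies at chr10:121033960-121100650.

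*Notum*, whose product is the secreted carboxylesterase that removes the WNT lipid, was the least abundant antagonist and rested on 58 to 163 counts per library. It was at 5.78, 5.59, 4.51, 3.88 and 3.47 CPM in control-label libraries and at 2.69, 2.58, 2.74, 3.02 and 3.27 CPM in mutant-label libraries. The control-label libraries were spread widely and the mutant-label ones closely, at 4.65 ± 1.02 and 2.86 ± 0.279 CPM (SD, n = 5 each), without overlap. The log2 fold change was −0.70 (standard error 0.161, unadjusted p = 0.0010, adjusted p = 0.307, edgeR, exact permutation p = 0.0079). *Notum* lies at chr11:120653788-120661175 and shares 918 exon bases with *Myadml2os* and *Notumos* on the opposite strand.

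The inhibitors of LRP5 and LRP6 were *Dkk1*, *Dkk2* and *Sost*. *Dkk1*, at chr19:30545863-30549665, was at 68.2, 62.5, 93.9, 99.97 and 78.5 CPM in control-label libraries and at 61.0, 64.0, 72.6, 64.4 and 68.0 CPM in mutant-label libraries. Control-label libraries 3, 4 and 5 lay above all mutant-label libraries, and the other two did not. The log2 fold change was −0.29 (standard error 0.120, unadjusted p = 0.0334, adjusted p = 0.642, edgeR, exact permutation p = 0.103). *Sost*, the osteocyte product at chr11:101962458-101967015, was at 73.4, 39.7, 70.3, 106.7 and 71.5 CPM in control-label libraries and at 46.3, 51.1, 59.7, 50.4 and 35.3 CPM in mutant-label libraries. Control-label library 2 lay among the mutant-label ones and the other 4 were above them all. The log2 fold change was −0.57 (standard error 0.214, unadjusted p = 0.0207, adjusted p = 0.621, edgeR, exact permutation p = 0.0873).

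*Dkk2*, at chr3:132085292-132180304, was at 19.95 ± 4.13 and 19.9 ± 2.51 CPM in control-label and mutant-label libraries (SD, n = 5 each; unadjusted p = 0.982, edgeR). *Dkk3*, at chr7:112116017-112159057, was at 170 ± 24.0 and 191 ± 29.2 CPM (log2 fold change 0.17, standard error 0.119, adjusted p = 0.761, edgeR). Both overlapped between labels. *Dkk3* was one of the 2 antagonists with a higher fitted value, and its 5 control-label libraries, at 149.8 to 199 CPM, were all inside the spread of the mutant-label ones, at 148.8 to 230 CPM.

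When each library was left out in turn, *Sfrp2*, *Sfrp4*, *Wif1* and *Notum* stayed under an unadjusted p of 0.05 in all 10 fits. *Sost* lost it without control-label library 4 or mutant-label library 5. *Dkk1* kept it in 4 fits and *Frzb* in 3, and without control-label library 4 all of *Frzb*, *Dkk1* and *Sost* lost it, which left 4 antagonists. *Dkk3* came under it without mutant-label library 2, and its log2 fold change ran from 0.098 to 0.26 over these fits. By the exact permutation test of each gene alone, *Sfrp2*, *Sfrp4*, *Wif1* and *Notum* had a p under 0.05, and *Frzb*, *Dkk1* and *Sost* did not. These 7 antagonists were picked by their edgeR p in the same libraries, so this is no separate support. The share of all genes under that permutation p is not given here.

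To place the antagonists beside the cells of the excised tissue, the mean log2 CPM of 15 osteoblast genes (among them *Runx2*, *Sp7*, *Ibsp* and *Dmp1*) and of 16 connective tissue genes was taken as a score in each library. Both lists were chosen with earlier results of these libraries known, and neither contains an antagonist. The osteoblast score was 7.43 ± 0.054 in control-label and 7.11 ± 0.133 in mutant-label libraries, a difference of −0.32 without overlap (SD, n = 5 each; exact permutation p = 0.0079). All 15 osteoblast genes were lower, 10 of them at an unadjusted p under 0.05 (against 3.82% of all genes tested), with a median log2 fold change of −0.26. The connective tissue score was 4.47 ± 0.29 and 4.6 ± 0.55, a difference of 0.13 (exact permutation p = 0.738). The median log2 fold change of its 16 genes was 0.33.

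Both parts of the connective tissue list were also scored on their own. Of 8 tendon-like genes 6 were higher, 5 of them at an unadjusted p under 0.05. Of 8 loose connective tissue genes 7 were higher, 1 of them at that threshold. None was lower at it, where the shares of all genes tested were 3.68% higher and 3.82% lower. The 8 tendon-like genes differed by 0.41 (exact permutation p = 0.0635), whereas the 8 loose connective tissue genes differed by −0.16 (exact permutation p = 0.794). Mutant-labelled library 1 stood apart in the loose genes, with *Pi16*, a fibroblast gene, at 76.6 CPM against 2.16 to 19.6 CPM in the other 9 libraries, and without this library the connective tissue score difference was −0.10. Within the tendon-like list the 4 genes by which the study marks the AF, *Scx*, *Tnmd*, *Mkx* and *Matn4*, averaged 4.77 ± 0.145 and 5.24 ± 0.136 log2 CPM, a difference of 0.47 without overlap. That subset was singled out after its values had been seen and is given with no test. Of the other 4 tendon-like genes, *Chodl* and *Fmod* had fitted values of 0.95 and 0.16, and *Kera* and *Thbs4* had −0.14 and −0.56.

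**Figure D3:**
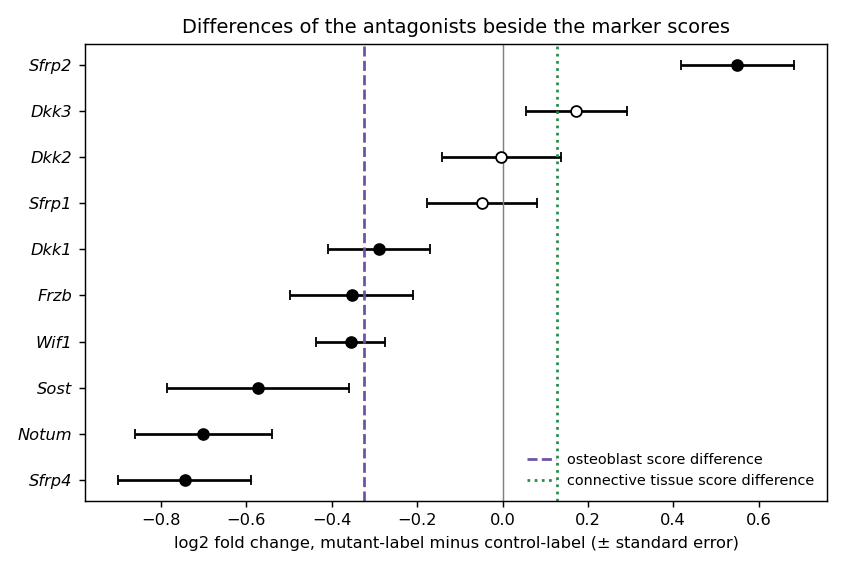
Points give the log2 fold change of each antagonist, mutant-label minus control-label, with its standard error over 5 libraries of each label, and filled points have an unadjusted p under 0.05 (edgeR). The dashed line at −0.32 is the difference of the osteoblast score and the dotted line at 0.13 that of the connective tissue score; *Wif1*, *Frzb* and *Dkk1* lie beside the dashed line and *Sfrp2* lies to the right of both.

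The antagonists were then compared with the osteoblast score by subtracting the score from log2 CPM in each library, over 20 pairs of gene and score. *Wif1*, *Frzb* and *Dkk1* differed between labels by almost the same amount as the score, with remaining differences of −0.03, −0.02 and 0.06 (exact permutation p = 0.595, 0.897 and 0.659). *Sfrp2* stood highest above the score, by 0.87 without overlap (exact permutation p = 0.0079, 0.106 adjusted over the 20 pairs), followed by *Dkk3* at 0.49 (exact permutation p = 0.0159). *Notum* and *Sfrp4* were lower by more than the score, at −0.35 and −0.42 (exact permutation p = 0.0635 and 0.0714). Against the connective tissue score the smallest p was that of *Notum*, with a difference of −0.80 (exact permutation p = 0.0159, adjusted 0.106). No pair passed an adjusted p of 0.05, and the smallest p the design allows limits what 20 pairs can show.

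Whether an antagonist followed a score among libraries of the same label was measured by correlating values centred within each label, over 10 libraries. In each library the gene and the score come from the same tissue piece and the same scaling. *Wif1* had the highest correlation with the osteoblast score, with r of 0.72 (exact permutation p = 0.0290, 0.279 adjusted over 20 relations), a value that 2.12% of all genes tested reached. Its rank correlation was 0.75 (exact permutation p = 0.0336, adjusted 0.209), and without the 2 libraries farthest from the median score r was 0.79. *Dkk1* was positive with the osteoblast score, with r of 0.45 (exact permutation p = 0.0418, adjusted 0.279), which 13.4% of genes reached, and negative with the connective tissue score, with r of −0.57 (exact permutation p = 0.0123, adjusted 0.246). Its rank correlations were 0.75 and −0.80 (exact permutation p = 0.0336 and 0.0192, adjusted 0.209 each), and r without the 2 farthest libraries was 0.45 and −0.63. *Dkk3* had r of 0.50 with the osteoblast score, but its rank correlation was 0.15 and r without the 2 farthest libraries was 0.11. *Frzb* had 0.41, and 0.26 without those libraries. *Sfrp2* had −0.13 with a rank correlation of −0.15, and r of −0.78 without those libraries. *Sost*, an osteocyte product, had 0.05, which ran from −0.29 to 0.70 when single libraries were left out, so its relation to the score is not fixed by these libraries. Over the same fits *Dkk3* ran from 0.17 to 0.71 and *Frzb* from 0.24 to 0.73, and *Wif1* from 0.68 to 0.78.

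With the connective tissue score *Sfrp2* had r of 0.49 (exact permutation p = 0.205; rho 0.70, exact permutation p = 0.0522), a value that 8.94% of genes reached. *Sfrp1* had 0.46 and *Dkk2* 0.33. The order of these genes was not stable, since without the 2 libraries farthest from the median score r was 0.86 for *Dkk2*, 0.50 for *Sfrp1* and 0.49 for *Sfrp2*, and leaving out single libraries moved *Dkk2* between 0.12 and 0.88. *Wif1* had −0.44 and *Sfrp4* −0.35. *Sfrp4* was negative with both scores, with −0.32 for the osteoblast score, although its mean was lower in the same group as that score. None of the 20 relations passed an adjusted p of 0.05, so no antagonist met the criterion set for following either score, and the values do not separate the genes into 2 classes. The scores themselves had r of −0.34 with each other (exact permutation p = 0.453).

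**Figure D4:**
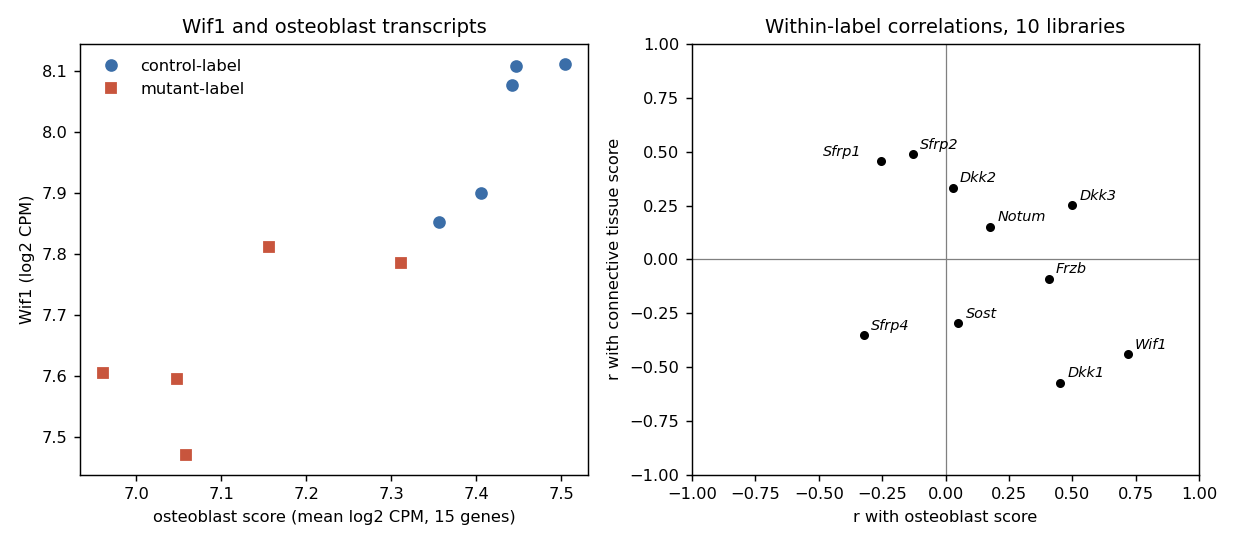
The left panel plots log2 CPM of *Wif1* against the osteoblast score in the 5 control-label (circles) and 5 mutant-label (squares) libraries. The right panel places each antagonist by its correlation, centred within label over 10 libraries, with the osteoblast score (horizontal) and the connective tissue score (vertical); *Wif1* lies farthest right at 0.72, and *Sfrp2* is highest at 0.49 with all 10 libraries, an order that changed without the 2 libraries farthest from the median score.

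The antagonists were also set beside the mean of the 4 AF marker genes. Centred r was 0.75 for *Notum*, 0.73 for *Dkk2*, 0.71 for *Sfrp2*, 0.68 for *Dkk3* and 0.34 for *Sfrp1*, while *Wif1* was at 0.03, *Dkk1* at −0.38 and *Sfrp4* at −0.41. Without the 2 libraries farthest from the median the order changed, with *Sfrp2* at 0.88, *Dkk3* at 0.78, *Dkk2* at 0.74, *Sfrp1* at 0.71, *Notum* at 0.67 and *Frzb* at 0.50 in place of 0.14. *Sfrp2* differed between labels by nearly as much as these markers, with 0.07 remaining after subtraction, whereas *Notum*, which varied with them within labels, remained at −1.15. These values rest on the subset chosen afterwards and were not tested.

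Among the antagonists, *Notum* and *Dkk3* varied together most closely within labels, with r of 0.76, followed by *Dkk2* and *Dkk3* at 0.70 and by *Dkk1* and *Sost* at 0.69, over 10 libraries. *Sfrp4* and *Notum*, which were both lower in mutant-label libraries, had r of −0.80. Of the 14478 genes with a mean of at least 1 CPM, those most like *Sost* were *Cxcl12* and *Aplnr*, with r of 0.98 each. *Mxd4* was most like *Wif1* (0.96), *Slc13a5* most like *Dkk3* (0.98) and *Atm* most like *Sfrp2* (0.91), and *Dcn*, a matrix proteoglycan, was among the 5 most like *Frzb* (0.94). With 10 libraries and this many genes, high values arise for any gene, and they are given as descriptions.

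The other extracellular parts of the pathway were counted at an unadjusted p under 0.05, and these counts are to be read against the 3.68% (higher) and 3.82% (lower) of all genes tested. Of 14 WNT ligands tested, *Wnt11* was higher, at 7.36 ± 0.681 and 10.9 ± 2.18 CPM, and *Wnt5b* and *Wnt10b* were lower at an unadjusted p under 0.05. *Wnt10b*, a ligand that promotes bone formation, was at 15.4 ± 1.76 and 12.7 ± 0.940 CPM (SD, n = 5 each; log2 fold change −0.28). Of 17 receptors and co-receptors, *Fzd2* was higher and *Lrp4*, which anchors sclerostin at the cell surface, was lower, at 129 ± 10.2 and 114 ± 5.86 CPM, which is 1 gene in each direction and near that background. *Lrp5* and *Lrp6*, the targets of DKK1 and sclerostin, were at 226 ± 6.77 and 231 ± 29.0 CPM and at 163 ± 15.2 and 183 ± 23.1 CPM, and overlapped between labels.

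Of 6 further extracellular WNT inhibitors tested, only *Trabd2b*, a membrane-bound protease that cleaves WNT ligands, had an unadjusted p under 0.05, and it was higher at 36.5 ± 2.03 and 45.5 ± 6.47 CPM. By fitted value 5 of these 6 were higher and 1 was lower. Of 8 potentiators, *Lgr5* was higher, at 6.5 ± 1.95 and 10.2 ± 1.05 CPM, and *Lgr4* and *Lgr6* were lower. *Lgr6*, a receptor for R-spondins, was at 48.4 ± 6.33 and 33.9 ± 3.71 CPM without overlap, and its unadjusted p of 0.00027 (edgeR) was below that of every antagonist. Of 11 WNT targets and feedback genes, *Nkd1* was higher and none was lower, and *Axin2* was at 16.9 ± 2.92 and 19.5 ± 2.08 CPM (unadjusted p = 0.113, edgeR). In none of these lists did a gene pass an adjusted p of 0.05 in edgeR. Their median log2 fold changes lay between −0.14 and 0.12, beside −0.32 for the 10 antagonists. Antagonists and lists were chosen with earlier results of these libraries known, so the contrast of medians is a description and not a test.

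Markers of other cells in the excised tissue were counted at the same threshold, which 3.68% of all genes passed as higher and 3.82% as lower. Of 9 cartilage genes tested, *Col2a1*, *Col9a2* and *Matn3* were higher (median of the list 0.35 on the log2 scale). *Matn3* was very low, at 0.457 and 0.944 CPM, and its groups overlapped (exact permutation p = 0.103). *Col2a1* was at 56.2 ± 8.91 and 103 ± 34.6 CPM and *Col9a2* at 25.6 ± 0.775 and 33.1 ± 3.79 CPM (SD, n = 5 each), without overlap. The sum of the whole list, most of it *Col11a2*, was 1373 to 1695 CPM in control-label and 1281 to 1686 CPM in mutant-label libraries. Of 8 neuronal genes 2 were higher (median 0.87), with summed levels of 56.6 to 128 and 61.7 to 400.1 CPM. These were *Nefl* and *Nefm*, at 54.9 and 45.4 CPM in mutant-label library 1 and at 3.62 to 7.67 and 2.47 to 9.58 CPM in the other mutant-label libraries (exact permutation p = 0.0635 and 0.0794), and *Tubb3* and *Stmn2* were highest in mutant-label library 2, at 175 and 93.6 CPM. All 8 neuronal genes were higher by fitted value, and mutant-label library 4 was above every control-label library in *Tubb3* (65.8 CPM), *Stmn2* (43.5 CPM) and *Gap43* (40.6 CPM). Of 8 osteoclast and 8 meningeal genes, 1 each was lower, and endothelial, muscle, epidermal, macrophage and erythroid lists held none. Muscle genes were high in 2 libraries, with *Acta1* at 234.7 CPM in control-label library 2 and 209 CPM in mutant-label library 1 against 4.34 to 52.5 CPM in the others, and these libraries also had the highest connective tissue score of their label. The part of these cells in the antagonist differences was not tested.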

How the data were processed

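Total RNA of the AF was made into stranded libraries and sequenced as single 50-nt reads. The authors deposited estimated counts per gene, unscaled between libraries; 66.4% of the values, zeros included, were exactly whole (tolerance 0). The submitters' processing notes name Partek and mm10, and the aligner, counting tool and strand setting are not given in the sources used here.

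Estimated counts were rounded to whole numbers, since the planned test assumed whole counts. Genes were filtered by edgeR's filterByExpr (16267 tested, 6813 left out), scaled by TMM (factors 0.90 to 1.13) and tested with edgeR's quasi-likelihood fit, with Benjamini-Hochberg adjustment over all genes tested (R 4.3.3, edgeR 4.0.16, limma 3.58.1, DESeq2 1.42.0). The biological coefficient of variation was 18.9%. Log2 CPM used a prior count of 0.5. Single values were compared by two-sided exact permutation over 252 groupings, and correlations by exact permutation over 14400 pairings within labels. The prior count of 0.5 was set for log2 CPM only, and edgeR's fold changes were fitted at its default setting. *Notum*, on few counts per library, carries most counting error.

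All 10 members, pathway genes at an unadjusted p under 0.05 and the 5 genes most like each member could be named. *Lrp5*, *Lrp6*, *Axin2* and the AF marker subset were named after their values were seen. Members and lists were chosen with earlier results of these data known. The study describes littermate pairs; which libraries form a pair, and whether pairs came from separate litters, is not given for these libraries in the sources used here, so p-values measure the spread between libraries, which may be partly technical. Alternatives were other normalizations, filters, tests, covariates, score definitions and leaving out each library.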

Additional observations from a re-analysis of the deposited data

Results flagged for a closer look

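One value stood far from the others of its label. In the connective tissue score, the gap between mutant-label library 1 and the next library was 0.76 of the range of the 5 mutant-label libraries, above the Dixon limit of 0.71. This library was at 5.56 log2 CPM, and 24 sets of 5 libraries (10 antagonists and 2 scores, under each label) were examined, of which chance marks about 1 in 20. None of the 10 antagonists had such a library under either label.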

How the results depend on the processing

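Of 220 alternative values of the antagonists' log2 fold changes, 201 kept their direction and side of the adjusted threshold. No antagonist passed that threshold in the main fit, so this count mainly reflects an unchanged sign, whatever the size of the value. DESeq2's Wald test gave 4 antagonists at an adjusted p under 0.05 in place of none. With the osteoblast score as a covariate, 2 antagonists (*Sfrp4* and *Dkk3*) had an unadjusted p under 0.05 in place of 7, and *Dkk1* reversed to 0.036; *Wif1* and *Frzb* were near 0 (−0.052 and −0.0078), while *Sfrp2* at 0.42, *Notum* at −0.58, *Sost* at −0.44, *Sfrp4* at −1.02 and *Dkk3* at 0.49 kept their direction and standard errors rose (*Sfrp2* from 0.132 to 0.276, *Notum* from 0.161 to 0.338). *Dkk2* reversed to 0.0044 with DESeq2's size factors, 0.00011 without ribosomal RNA genes, 0.0048 with DESeq2's test, 0.035 with limma voom (which gave *Dkk3* an unadjusted p of 0.047), 0.0053 with at least 10 counts in every library and 0.012 with a replicate block. Same-numbered libraries had r of −0.21 to 0.14 between their deviations. Weak pairing could also give such values, so they do not settle whether the replicate numbers pair the libraries. With a replicate block 7 antagonists still had an unadjusted p under 0.05, and the osteoblast score difference stayed at −0.32 with p = 0.0625, the smallest an exact sign-flip test of 5 pairs allows. The connective tissue score difference reversed to −0.16 with the loose genes alone. Correlations with the osteoblast score reversed for *Sost* (−0.19, z-scores) and, under library size only, for *Sfrp1* (0.036), *Sfrp2* (0.20) and *Sfrp4* (0.14); those with the connective tissue score reversed for *Frzb* (0.18, z-scores, and 0.052, loose genes), *Sfrp1* (−0.046, tendon-like genes) and *Notum* (−0.066, loose genes). The cause was not tested.

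Leaving out each library gave 4 to 7 antagonists at an unadjusted p under 0.05, 2 to 4 that were higher and 3 to 4 without overlap. Log2 fold changes ran from −0.11 to 0.039 for *Sfrp1* and from −0.094 to 0.090 for *Dkk2*, and the connective tissue score difference from −0.10 to 0.24. The osteoblast correlations ran from −0.29 to 0.70 for *Sost*, −0.26 to 0.17 for *Dkk2*, −0.48 to 0.30 for *Sfrp1*, −0.76 to 0.095 for *Sfrp2*, −0.52 to 0.22 for *Sfrp4* and −0.12 to 0.37 for *Notum*, and the connective tissue correlations from −0.26 to 0.17 for *Frzb* and −0.038 to 0.52 for *Notum*. edgeR's robust fit was run first; the default fit was chosen as the main one after its values had been seen, to match earlier processing of these data. Both gave the same 7 antagonists at an unadjusted p under 0.05 and none after adjustment.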
